A study of Mus musculus with 8 samples.

Results

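The report concerns 9 cell surface genes used to sort or to subdivide blood stem and progenitor cells: Kit, Ly6a, Itgam, Cd34, Flt3, Slamf1, Cd48, Thy1 and Procr. They were taken by gene symbol, with every non-control probe whose name in the array files was a listed symbol, and gave 15 of the 55681 distinct probes on the array. All 15 probes passed the filter on dim probes, as did 32354 probes in all. RNA was measured on 1-colour Agilent arrays, 8 in all, in 4 groups of 2, from bone marrow of mice aged 6 weeks on a mixed background described as B6/CBA and others. The groups were KSL Vav-Etv2, KSL control, Gr Vav-Etv2 and Gr control. KSL cells were sorted as c-Kit+ Sca-1+ lineage- cells, the fraction that holds stem and early progenitor cells, and Gr cells as Gr-1+/Mac-1+ cells, the fraction that holds granulocytes. In Vav-Etv2 mice a transgene for Etv2, an ETS transcription factor of blood and endothelial development, is turned on by a Vav-iCre transgene, whose promoter is active in blood cells. The labels do not say whether controls carried either transgene alone.

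The 75th percentile of the signal, to which every level is set, lay between 136 and 301 units on the 8 arrays, and the number of arrays limits the precision. The KSL samples lay in slide row 1 and the Gr samples in slide row 2, and the effect of the row cannot be told apart from that of the cell type. In both rows the controls lay in slide columns 1 and 2 and the Vav-Etv2 arrays in columns 3 and 4, so slide position and genotype cannot be told apart either. Whether an array stands for 1 animal or a pool is not in the labels, and p-values cover no more than the spread of these samples. One label was doubtful. The main Etv2 probe read -0.55 and -1.30 in Gr Vav-Etv2 arrays 1 and 2, and -4.48 in Gr control 1, but it also read -0.55, well above background, in the array labelled Gr control 2. In KSL cells it read 0.19 and -1.24 in Vav-Etv2 arrays and -4.37 and -4.73 in controls. Gr results of the members are therefore given with and without that array, and for the lists of relatives the calls that change without it are named. Among Gr arrays the replicate number also went with sex, since Xist, the RNA of the inactive X chromosome, read 0.35 and 0.27 in the Vav-Etv2 and control arrays numbered 1 and -6.83 and -7.10 in those numbered 2. Xist was well above background on all 4 KSL arrays. Leaving out the array labelled Gr control 2 sets Gr control 1 against Gr Vav-Etv2 arrays of both numbers. Genotype differences in Gr cells without that array therefore also hold the split by replicate number and sex. Array KSL Vav-Etv2 1 stood apart in other cell types' markers, as given below.

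Kit and Flt3 are receptor tyrosine kinases of 1 class, whose ligands, stem cell factor and Flt3 ligand, sustain early blood cells. Kit is kept by stem cells, and Flt3 marks progenitors that have begun to lose self-renewal. Ly6a encodes Sca-1, a GPI-anchored protein of the Ly6 family, and Cd34 a sialomucin whose surface level rises as mouse stem cells turn into multipotent progenitors. Slamf1 (CD150) and Cd48 belong to the SLAM family, and mouse stem cells are commonly sorted as CD150+ CD48-. Procr, the endothelial protein C receptor, marks stem cells, and Thy1 is present at a low level on them and at a high level on T cells. Itgam is the alpha chain of Mac-1, an integrin of granulocytes and monocytes.

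The array probes are 60-base oligonucleotides, and their placement bears on several results below. Positions are on build mm9, as the files give them, and the stretches shown run in the sense of the transcript. Itgam is shown with all 3 probes because they gave different sizes of contrast. Its brightest probe opens with a run of CA repeats (capitals), whereas the other probes hold no such run. The first 30 bases are shown for the probes of Kit, Ly6a, Procr and the brightest probes of Itgam, Cd34 and Cd48, and all 60 bases for the others shown.
Kit, chr5:76052394-76052453, plus strand: gtcaggtacttaaggggccacaccattgag
Ly6a, chr15:74825553-74825612, minus strand: tatgagttatagaagctccaaggtgggagt
Itgam, brightest probe, chr7:135261755-135261814, plus strand: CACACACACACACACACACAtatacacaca
Itgam, chr7:135260275-135260334, plus strand: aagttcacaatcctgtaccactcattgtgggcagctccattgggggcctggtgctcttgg
Itgam, chr7:135212140-135212199, plus strand: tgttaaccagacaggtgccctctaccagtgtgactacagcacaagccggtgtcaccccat
Cd34, brightest probe, chr1:196787392-196787451, plus strand: ccagagatgagaggattgggtgtattctct
Cd34, chr1:196785280-196785339, plus strand: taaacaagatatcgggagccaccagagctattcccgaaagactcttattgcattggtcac
Cd48, brightest probe, chr1:173635201-173635260, plus strand: cctgtgtgcccagtcctttacaaagatttc
Cd48, chr1:173629721-173629780, plus strand: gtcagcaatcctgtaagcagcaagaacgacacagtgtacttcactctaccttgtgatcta
Procr, chr2:155580945-155581004, plus strand: ggcagacttactgtaggcattcaaaacatc
The CA run of the Itgam probe is 20 bases long, and 24 of the 55681 probes (0.0431%) hold one as long. Thy1 and Slamf1 were read by 1 probe each, at chr9:43856591-43856650 and chr1:173730343-173730402, and Flt3 by 3 probes, the brightest at chr5:148142576-148142635. Levels below are log2 signals relative to the array's 75th percentile. They compare arrays for 1 probe and do not compare genes.

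The genes used for the sort were read first, in control KSL against control Gr cells. Kit stood at 5.15 on both KSL control arrays, against 2.04 and 1.83 on the Gr control arrays. The KSL level was 9.25-fold higher (log2 difference 3.21, SE 0.38, n = 2 each, limma adjusted p = 0.00259). Ly6a went the other way: it stood at 3.65 and 3.59 in KSL controls and at 6.18 and 4.47 in Gr controls. Thus RNA for Sca-1, the protein that KSL cells were sorted for, read lower in KSL than in Gr cells on every control array. The difference was -1.70 with an SE of 0.76 and did not pass the test over all probes (limma adjusted p = 0.122). Its 95% interval ran from -3.51 to 0.10. With the array labelled Gr control 2 left out it became -2.56 (limma adjusted p = 0.0491), and without Gr control 1 it was -0.85 (limma adjusted p = 0.499).

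Itgam was lower in KSL than in Gr cells by all 3 probes, though not by the same amount. The brightest probe read 5.19 and 4.71 in KSL controls and 7.14 and 5.97 in Gr controls (log2 difference -1.60, SE 0.55, limma adjusted p = 0.0600). The probe that ends at position 135260334 read 1.27 and 1.40 in KSL controls, against 5.40 and 4.63 in Gr controls. That difference of -3.68 passed the test (SE 0.96, limma adjusted p = 0.0271). The probe that ends at position 135212199 read -2.42 and -2.74 in KSL controls and 1.30 and -0.11 in Gr controls, and also passed (log2 difference -3.18, SE 0.70, limma adjusted p = 0.0157). The probe with the CA repeat thus gave a 3.04-fold contrast where the others gave 12.8-fold and 9.06-fold; a part of the repeat in this was not tested. The brightest probe passed under 8 of the 18 alternatives, among them median scaling (-1.77, limma adjusted p = 0.0257), normexp background correction (-1.55, limma adjusted p = 0.0266) and leaving out the array labelled Gr control 2 (-2.19, limma adjusted p = 0.0307). The other probes passed without that array (-4.07 and -3.89), and did not pass without Gr control 1 (limma adjusted p = 0.127 and 0.0801) or without either of the KSL controls.

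The Gr-1 antibody binds products of Ly6g and Ly6c. A probe that the files describe as Ly6g read 1.17 and 1.05 in KSL controls and 7.06 and 6.15 in Gr controls, and fell in KSL by 5.50 (SE 0.95, limma adjusted p = 0.00736). The Ly6c1 probe read 6.51 and 6.50 in KSL controls, against 10.09 and 9.30 in Gr controls, a difference of -3.19 (SE 0.59, limma adjusted p = 0.00933). Both still passed without the array labelled Gr control 2, at -5.95 for Ly6g and -3.59 for Ly6c1. No probe bears the name Ly6c2, and 1 Ly6c1 probe lists transcripts of both genes. Markers of mature neutrophils were present in both sorts. The 12 mature neutrophil genes, Itgam and Ly6g among them, summed to between 1543.5 and 1628.9 times the 75th percentile in KSL controls and to between 5367.9 and 12304.7 times in Gr controls, and all 12 were well above background on each control array. Their part in the levels of Itgam and Ly6g in KSL arrays was not tested.

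**Figure D1:**
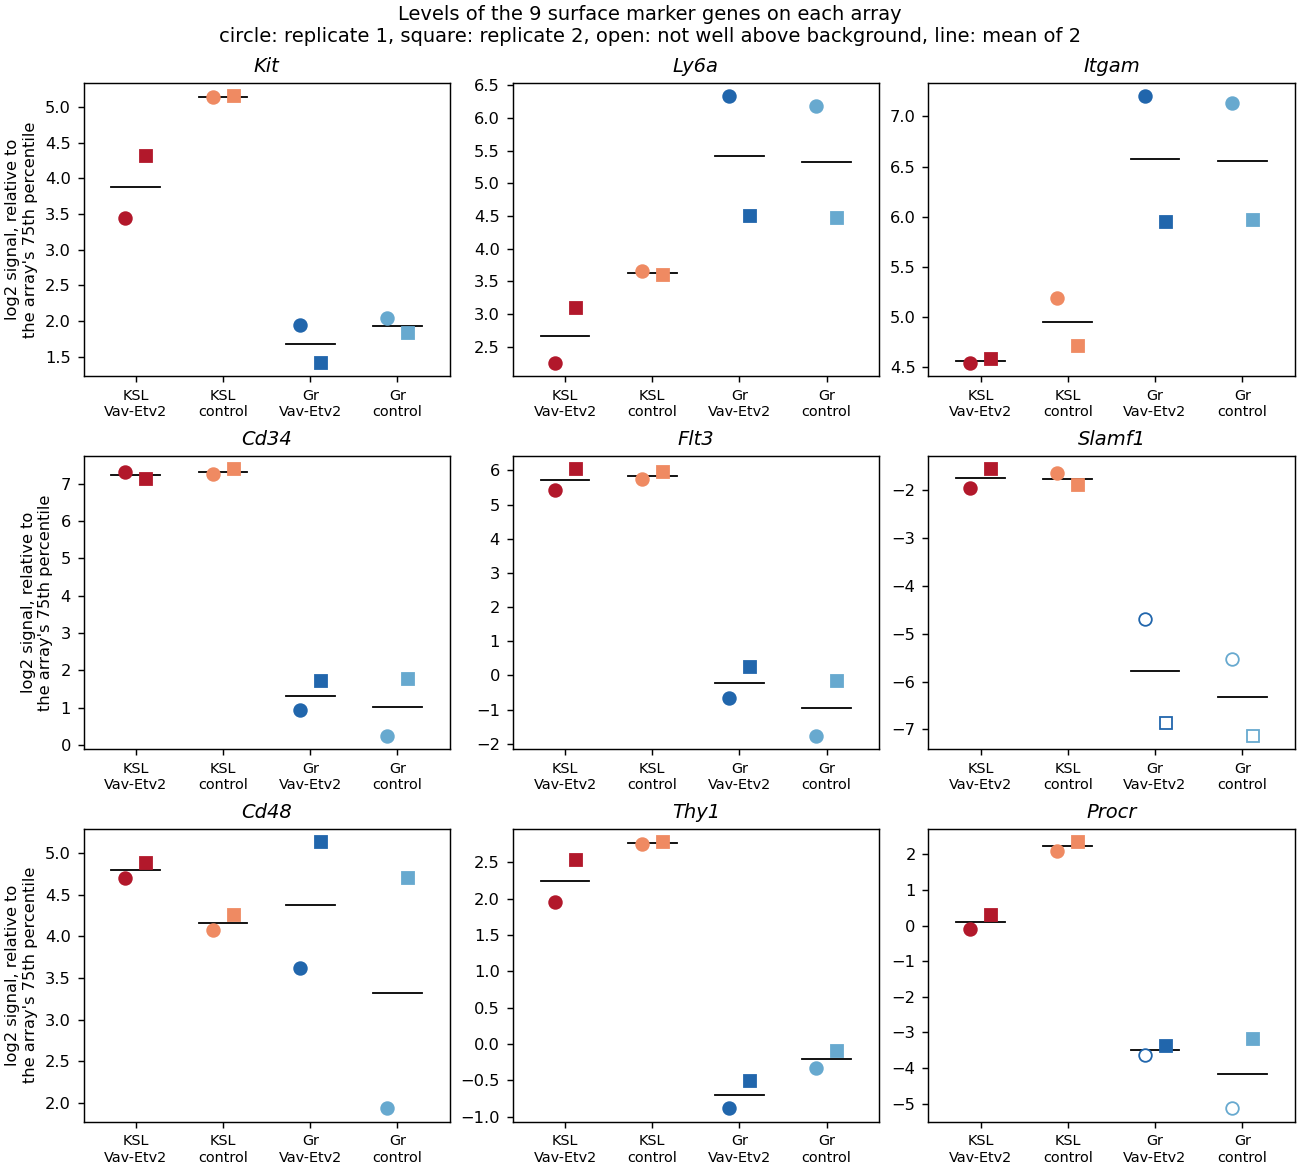
Each panel plots the brightest probe of 1 gene, as log2 signal relative to the array's 75th percentile, for KSL Vav-Etv2, KSL control, Gr Vav-Etv2 and Gr control arrays. Circles are replicate 1, squares replicate 2, open symbols are not well above background and lines are means of 2 arrays. Procr lies lower on both KSL Vav-Etv2 arrays (-0.09 and 0.29) than on both KSL controls (2.10 and 2.35), and Ly6a lies higher in Gr than in KSL cells.

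The markers that subdivide stem and progenitor cells were then compared between control KSL and control Gr cells. Cd34, Flt3, Slamf1, Thy1 and Procr rose in KSL cells and Cd48 did not pass the test. With Kit, 6 of the 9 members were called, all higher in KSL, where 34.1% of all probes were called, 15.7% higher and 18.4% lower. The median difference over the 9 members was 3.21, against -0.15 over all probes. Members were chosen as sort and stem cell genes, so the count describes the cell types and is no independent check.

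Cd34 stood at 7.25 and 7.39 in KSL controls and at 0.25 and 1.76 in Gr controls, a 79.5-fold difference (log2 6.31, SE 0.53, limma adjusted p = 0.0012). Its other probe read 0.96 and 0.94 in KSL controls and -3.49 and -2.99 in Gr controls, with a difference of 4.18 (SE 0.42, limma adjusted p = 0.0017). The groups lay far apart by both probes, but the other probe was well above background on only 1 of the 2 Gr controls. Flt3 read 5.75 and 5.95 in KSL controls against -1.77 and -0.16 in Gr controls. That difference, 6.81, was the largest among the brightest probes of the 9 members (SE 0.59, limma adjusted p = 0.00127). Of the other Flt3 probes, 1 gave 6.65 (SE 0.73, limma adjusted p = 0.00212), but it was not well above background on Gr control 1, and the difference was 5.58 with a floor and 3.38 with normexp, passing in both. The last, which the files assign to a cDNA clone, gave 1.36 (SE 0.41, limma adjusted p = 0.0411). Its call held under 7 of 16 alternatives, and normexp gave 0.30 (limma adjusted p = 0.578).

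Slamf1 was dim throughout: it read -1.65 and -1.89 in KSL controls and was not well above background on any Gr array, where it read -5.53 and -7.13 in controls. It was at least 6.06-fold higher in KSL controls, a bound set by the lowest measurable signal (limma adjusted p = 0.00731). With normexp background correction the difference was 0.95 and did not pass (limma adjusted p = 0.115). Thy1 stood at 2.76 and 2.78 in KSL controls and at -0.33 and -0.10 in Gr controls. The KSL level was 7.91-fold higher (log2 2.98, SE 0.33, limma adjusted p = 0.00209). Procr read 2.10 and 2.35 in KSL controls against -5.13 and -3.18 in Gr controls, where 1 of 2 arrays was well above background. The difference was 6.38 (SE 0.60, limma adjusted p = 0.0016). Its size depended on the dim signals in Gr cells, as it was 5.71 with a floor and 3.79 with normexp, passing in both. With the array labelled Gr control 2 left out, Kit, Cd34, Flt3 and Thy1 still passed, at differences of 3.10, 7.07, 7.62 and 3.10. Slamf1 and Procr were not well above background on Gr control 1, the array that remains, and against its lowest measurable signal they were at least 4.08-fold and 64.8-fold higher in KSL controls.

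Cd48 did not separate the cell types. Its brightest probe read 4.07 and 4.26 in KSL controls, between the values of the Gr controls, 1.94 in array 1 and 4.70 in the array labelled Gr control 2. The difference was 0.85 (SE 0.89, 95% interval -1.27 to 2.97, limma adjusted p = 0.482). It was 2.23 without the array labelled Gr control 2, which passed (limma adjusted p = 0.0392), and -0.53 without Gr control 1. The other Cd48 probe read 3.35 and 3.37 in KSL controls and 0.86 and 3.89 in Gr controls, and its difference was 2.50 without the array labelled Gr control 2 and -0.53 without Gr control 1. Cd48 was thus the 1 member of 9 whose control groups overlapped; over all probes 75% did not overlap, 34.2% higher and 40.8% lower in KSL cells, and of the 9 members 6 were of the first kind and 2 of the second.

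**Figure D2:**
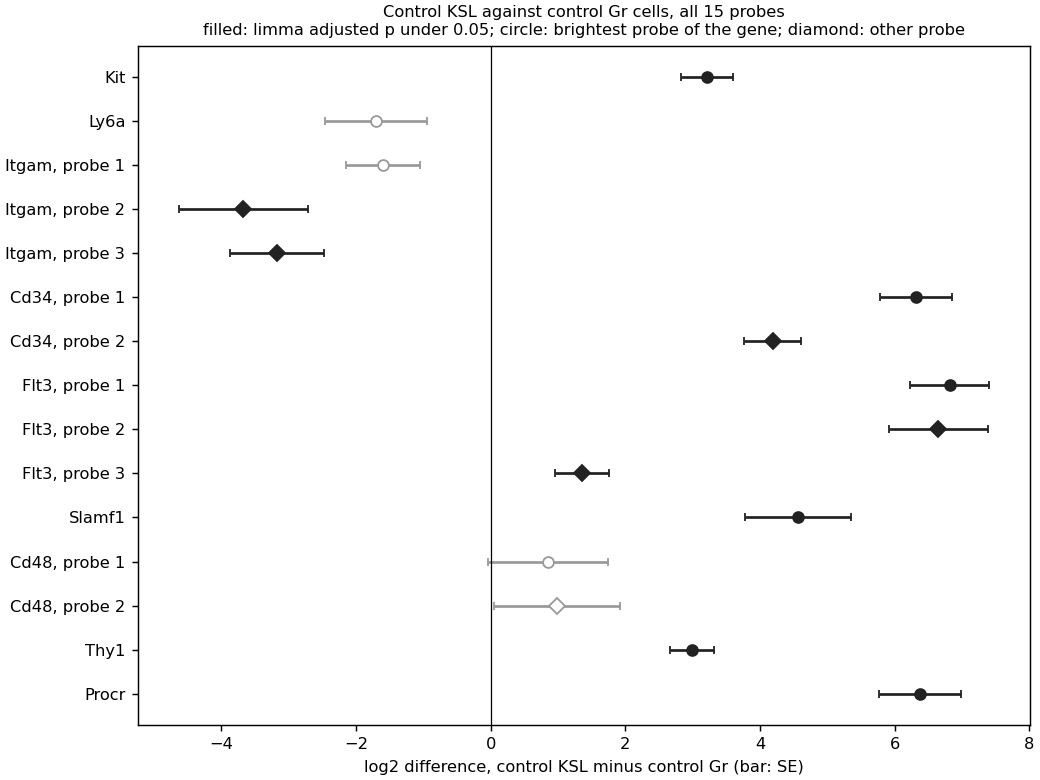
Log2 differences of control KSL minus control Gr cells for all 15 probes, with bars of 1 SE; filled symbols passed the test (limma adjusted p under 0.05), circles are the brightest probe of a gene and diamonds its other probes. Probe 1 is the brightest. The Itgam probes sit at -1.60, -3.68 and -3.18, and Cd34, Flt3, Slamf1 and Procr lie to the right of 4 by their brightest probes.

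The comparison of Vav-Etv2 with control KSL cells asked whether the transgene altered these markers in stem and progenitor cells. None of the 9 members passed the test by limma, where 0.00927% of all probes did (3 of 32354). At an unadjusted p under 0.05 stood 2 members, Procr and Kit, and 2349 probes in all. Of the 9 members, 7 had a negative difference, with a median of -0.38 against 0.02 over all probes. The groups did not overlap for 6 members, 5 of them lower and 1 higher in Vav-Etv2 cells; over all probes 51.2% did not overlap, 24.4% lower and 26.8% higher. With 2 arrays a group, a p that misses the threshold does not show that a gene was unchanged.

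Procr moved most. It read -0.09 and 0.29 in KSL Vav-Etv2 cells, against 2.10 and 2.35 in KSL controls. Both Vav-Etv2 arrays lay below both controls, with a gap wider than the spread within either group. The difference was -2.12, or 4.35-fold lower (SE 0.60, 95% interval -3.56 to -0.68, unadjusted p = 0.0103, limma adjusted p = 0.464). Without KSL Vav-Etv2 array 1 it was -1.93 and without array 2 it was -2.31.

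Kit, the receptor the cells were sorted for, read 3.45 and 4.32 in KSL Vav-Etv2 cells and 5.15 on both KSL control arrays. Both Vav-Etv2 arrays lay below the controls, array 1 more than array 2. The difference was -1.26 (SE 0.38, 95% interval -2.17 to -0.35, unadjusted p = 0.0136, limma adjusted p = 0.506). It was -0.83 without KSL Vav-Etv2 array 1 and -1.70 without array 2. Ly6a, the other gene of the KSL gate, read 2.25 and 3.09 in Vav-Etv2 cells, against 3.65 and 3.59 in controls. These groups did not overlap either, and the difference of -0.95 was near its SE of 0.76 (limma adjusted p = 0.964). Thy1 read 1.95 and 2.53 in Vav-Etv2 cells and 2.76 and 2.78 in controls, and differed by -0.53 (SE 0.33, limma adjusted p = 0.895). Of the 11 T and NK genes, 9 also had negative differences in KSL cells (median -0.57), among them Cd3d, a chain of the T cell receptor complex, at -4.76 and -2.13 in Vav-Etv2 cells against -0.58 and -0.55 in controls. The list summed to 21.1 and 24.1 times the 75th percentile in Vav-Etv2 cells and to 23.0 and 23.2 times in controls, with 8 and 11 genes well above background in Vav-Etv2 cells and 10 in controls. Its part in the Thy1 level was not tested. For Kit, Ly6a and Thy1 alike, KSL Vav-Etv2 array 1 lay farther below the controls than array 2.

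Cd34, Flt3 and Slamf1 lay close to the controls in Vav-Etv2 KSL cells. Cd34 read 7.31 and 7.13 in Vav-Etv2 cells, against 7.25 and 7.39 in controls (log2 difference -0.10, 95% interval -1.36 to 1.16). Flt3 read 5.42 and 6.04 in Vav-Etv2 cells and 5.75 and 5.95 in controls (log2 difference -0.12, 95% interval -1.52 to 1.28). Slamf1 read -1.95 and -1.56 in Vav-Etv2 cells and -1.65 and -1.89 in controls (log2 difference 0.01, 95% interval -1.85 to 1.88). In all 3 the groups overlapped, but the intervals leave room for a change of over 2-fold in either direction. The intervals rest on a spread shared with the Gr arrays. Those arrays held 97.9% of the variation within cell types for Cd34, 90.9% for Flt3 and 97.5% for Slamf1, which was not well above background there. The other probes also lay close to the controls: the differences were 0.29 for the other Cd34 probe, and -0.08 and -0.04 for the other Flt3 probes.

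Cd48 was the 1 member whose Vav-Etv2 KSL arrays both lay above the controls. Its brightest probe read 4.70 and 4.88 in Vav-Etv2 cells, against 4.07 and 4.26 in controls, a difference of 0.63 (SE 0.89, limma adjusted p = 1.00). The other probe read 3.85 and 4.01 in Vav-Etv2 cells and 3.35 and 3.37 in controls (log2 difference 0.56). The SE is far wider than the gaps within the KSL groups, because the fit shares its spread with the Gr arrays, which differed widely for this gene.

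Itgam differed between its probes here as well. The brightest probe read 4.54 and 4.58 in Vav-Etv2 KSL cells and 5.19 and 4.71 in controls, and differed by -0.38 (SE 0.55, limma adjusted p = 1.00). The probe that ends at position 135260334 read -1.13 and 1.58 in Vav-Etv2 cells, against 1.27 and 1.40 in controls. It was low on KSL Vav-Etv2 array 1 alone, and its difference of -1.11 became 0.25 without that array. The probe that ends at position 135212199 read -3.69 and -2.98 in Vav-Etv2 cells and -2.42 and -2.74 in controls (log2 difference -0.75). Ly6g moved like the middle probe, at -1.91 and 1.28 in Vav-Etv2 cells against 1.17 and 1.05 in controls. Ly6c1 read 4.84 and 6.55 in Vav-Etv2 cells and 6.51 and 6.50 in controls, again low only on array 1.

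Other cell types' markers also differed among the KSL arrays, some by group and some on KSL Vav-Etv2 array 1 alone. The 12 mature neutrophil genes summed to 126.2 and 1649.6 times the 75th percentile in KSL Vav-Etv2 arrays 1 and 2, against 1543.5 to 1628.9 times in KSL controls, and all 12 were well above background on each of these arrays. The 14 endothelial genes summed to 473.2 and 141.8 times in KSL Vav-Etv2 arrays 1 and 2 and to 100.1 to 102.6 times in controls. Egfl7 read highest of the list on each of these arrays and weighed most in the sums. It stood at 8.46 and 6.84 in Vav-Etv2 arrays 1 and 2, against 5.98 and 6.03 in controls. The list's median level was 3.26 and 0.26 in Vav-Etv2 arrays 1 and 2, and -0.28 and -0.42 in controls. All 14 genes were well above background on both Vav-Etv2 arrays, and 12 to 13 of them on the controls. Cdh5, VE-cadherin of endothelial junctions, read 3.53 and -1.60 in Vav-Etv2 cells and -3.74 and -3.65 in controls. Vwf, of the same list, read 4.66 and 2.21 in Vav-Etv2 cells, against 3.33 and 3.32 in controls. Of the 14 differences 12 were positive and 2 negative. Without KSL Vav-Etv2 array 1, 9 were positive and 5 negative. The 10 B lineage genes summed to 141.8 to 198.2 times in Vav-Etv2 cells and to 42.6 to 43.9 times in controls, with 10 and 9 genes well above background. The 9 monocyte and macrophage genes summed to 61.8 and 69.9 times in Vav-Etv2 cells and to 34.8 and 39.0 times in controls, with 8 to 9 genes well above background in Vav-Etv2 cells and 8 in controls; Ccr2 read 3.65 and 3.14 in Vav-Etv2 cells, against -0.07 and 0.20 in controls. The 7 erythroid genes summed to 36.2 and 47.7 times in Vav-Etv2 cells and to 70.2 and 71.6 times in controls, with 6 genes well above background in Vav-Etv2 cells and 6 to 7 in controls. The part of these cell types in the levels of Kit, Ly6a, Thy1, Itgam and Procr was not tested. In sorted bulk samples, fewer cells that carry a marker and less RNA per cell cannot be told apart.

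**Figure D3:**
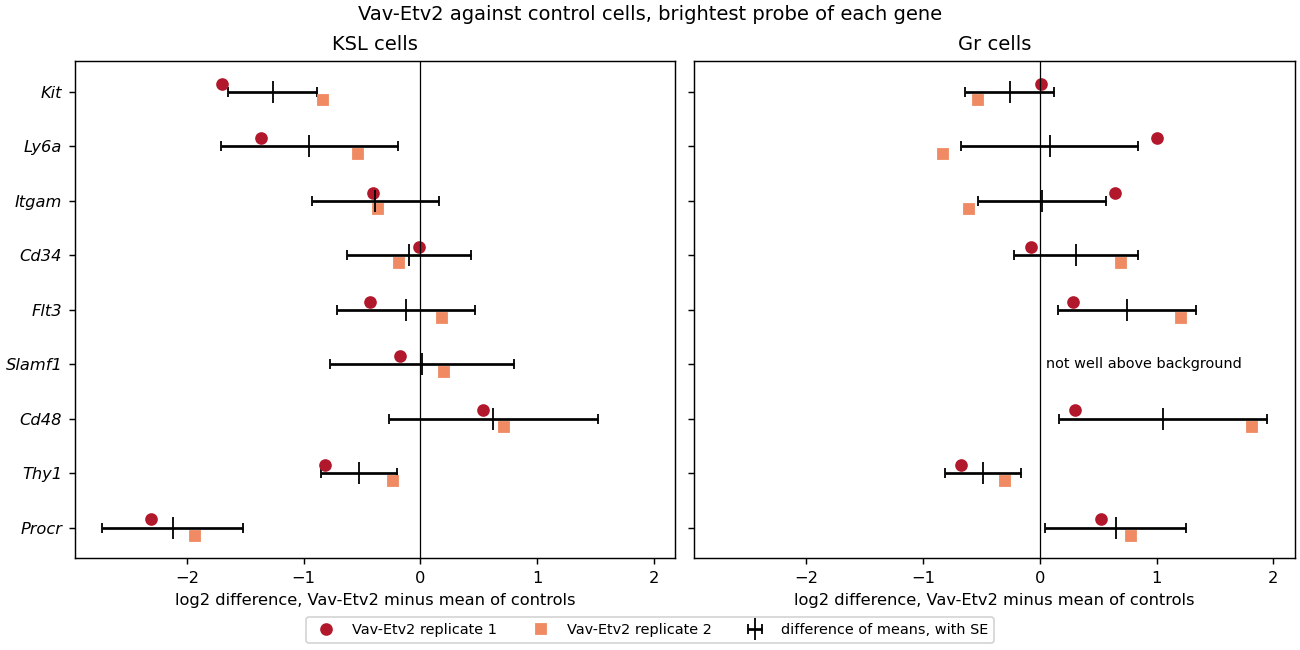
Differences of Vav-Etv2 arrays from the mean of the 2 controls, in KSL cells (left) and Gr cells (right), by each gene's brightest probe; circles are Vav-Etv2 replicate 1, squares replicate 2, and black ticks with bars are the difference of means with its SE. In KSL cells Procr (-2.12) and Kit (-1.26) lie farthest to the left, and Slamf1 is not drawn for Gr cells, where it was not well above background.

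In Gr cells none of the 9 members passed the test either; by limma 0.00309% of all probes did (1 of 32354), and at an unadjusted p under 0.05 stood 0 members and 424 probes. Only Thy1 had groups that did not overlap, where 12.2% of all probes did not, 5.94% higher and 6.22% lower in Vav-Etv2 cells. Thy1 read -0.89 and -0.51 in Gr Vav-Etv2 cells, against -0.33 and -0.10 in Gr controls. The difference was -0.49 (SE 0.33, limma adjusted p = 1.00), near that in KSL cells. It was -0.56 between the arrays numbered 1, -0.41 between those numbered 2 and -0.37 without the array labelled Gr control 2. Of the 11 T and NK genes, 9 had negative differences here too (median -0.44), and the list summed to 11.9 and 7.33 times the 75th percentile in Gr Vav-Etv2 cells and to 18.7 and 10.1 times in Gr controls, with 7 genes well above background in Gr Vav-Etv2 cells and 8 and 10 in Gr controls. Its part was not tested.

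By the brightest probes of Ly6a, Itgam and Cd48 the Gr arrays differed more by replicate number than by genotype. Ly6a read 6.33 and 4.49 in Gr Vav-Etv2 arrays 1 and 2, against 6.18 and 4.47 in Gr controls. Within a number the genotypes differed by 0.15 and 0.02. By its brightest probe Itgam read 7.20 and 5.95 in Gr Vav-Etv2 cells and 7.14 and 5.97 in Gr controls. The differences within numbers were 0.06 and -0.02. The Itgam probe that ends at position 135260334 gave 0.97 and -0.17 within numbers. The one that ends at position 135212199 gave 0.22 and -0.14. Ly6a and Itgam were both higher on the arrays numbered 1. Cd48 was lower on them, with 3.61 and 5.13 in Gr Vav-Etv2 cells and 1.94 and 4.70 in Gr controls, and within a number the Vav-Etv2 arrays read higher by 1.68 and 0.44.

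Cd34, Flt3 and Kit read lower in Gr than in KSL cells in both genotypes. Cd34 read 0.93 and 1.71 in Gr Vav-Etv2 cells, against 0.25 and 1.76 in Gr controls (log2 difference 0.31, SE 0.53, and 0.68 and -0.06 within numbers). The other Cd34 probe differed by -0.32 (SE 0.42), and by -0.50 and -0.13 within numbers. That probe was well above background on 1 of 2 Gr arrays of each genotype. Flt3 read -0.68 and 0.24 in Gr Vav-Etv2 cells and -1.77 and -0.16 in Gr controls (log2 difference 0.75, SE 0.59, and 1.09 and 0.41 within numbers). Kit read 1.95 and 1.41 in Gr Vav-Etv2 cells and 2.04 and 1.83 in Gr controls (log2 difference -0.26, SE 0.38, and -0.10 and -0.42 within numbers). Procr read -3.63 and -3.38 in Gr Vav-Etv2 cells, where 1 of 2 arrays was well above background, and -5.13 and -3.18 in Gr controls (log2 difference 0.65, SE 0.60, and 1.50 and -0.20 within numbers). Slamf1 was not well above background on any of the 4 arrays. In the differences that follow, genotype cannot be told apart from replicate number and sex, because Gr control 1 alone stands against Vav-Etv2 arrays of both numbers. Without the array labelled Gr control 2 the Gr differences were -0.36 for Kit, -0.77 for Ly6a, -0.56 for Itgam, 1.07 for Cd34, 1.55 for Flt3, 2.44 for Cd48 and 1.63 for Procr, and none passed.

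Other markers split by replicate number in the same arrays. The 12 mature neutrophil genes summed to 10449.8 and 5352.3 times the 75th percentile in Gr Vav-Etv2 arrays 1 and 2 and to 12304.7 and 5367.9 times in Gr controls 1 and 2. The 9 monocyte and macrophage genes summed to 224.8 and 454.1 times in Gr Vav-Etv2 cells and to 126.1 and 381.3 times in Gr controls, and all of both lists were well above background on each Gr array. Ccr2, a chemokine receptor of monocytes, read 3.21 and 5.16 in Gr Vav-Etv2 cells and 1.59 and 4.97 in Gr controls. Mcpt8, a basophil protease, read -1.15 and 4.08 in Gr Vav-Etv2 cells and 0.83 and 4.76 in Gr controls. Some genes of the same lists were instead higher on the arrays numbered 1. C1qa read 1.92 and -1.34 in Gr Vav-Etv2 cells and 0.48 and -1.37 in Gr controls. Hdc read 8.15 and 6.17 in Gr Vav-Etv2 cells and 9.02 and 6.59 in Gr controls. The 10 mast cell and basophil genes, Mcpt8 and Hdc among them, summed to 285.7 and 123.9 times in Gr Vav-Etv2 cells. In Gr controls they summed to 526.9 and 180.0 times. Hdc read highest of the list on each of these arrays and weighed most in the sums. The list's median level ran the other way, at -2.39 and -0.90 in Gr Vav-Etv2 arrays 1 and 2. In Gr controls 1 and 2 it was -1.37 and -0.29. Of the 10 genes, 6 and 7 were well above background in Gr Vav-Etv2 cells and 7 and 8 in Gr controls. The part of these lists in the Gr levels of Itgam, Ly6a and Cd48 was not tested, and sex and replicate number cannot be told apart in these 4 arrays.

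**Figure D4:**
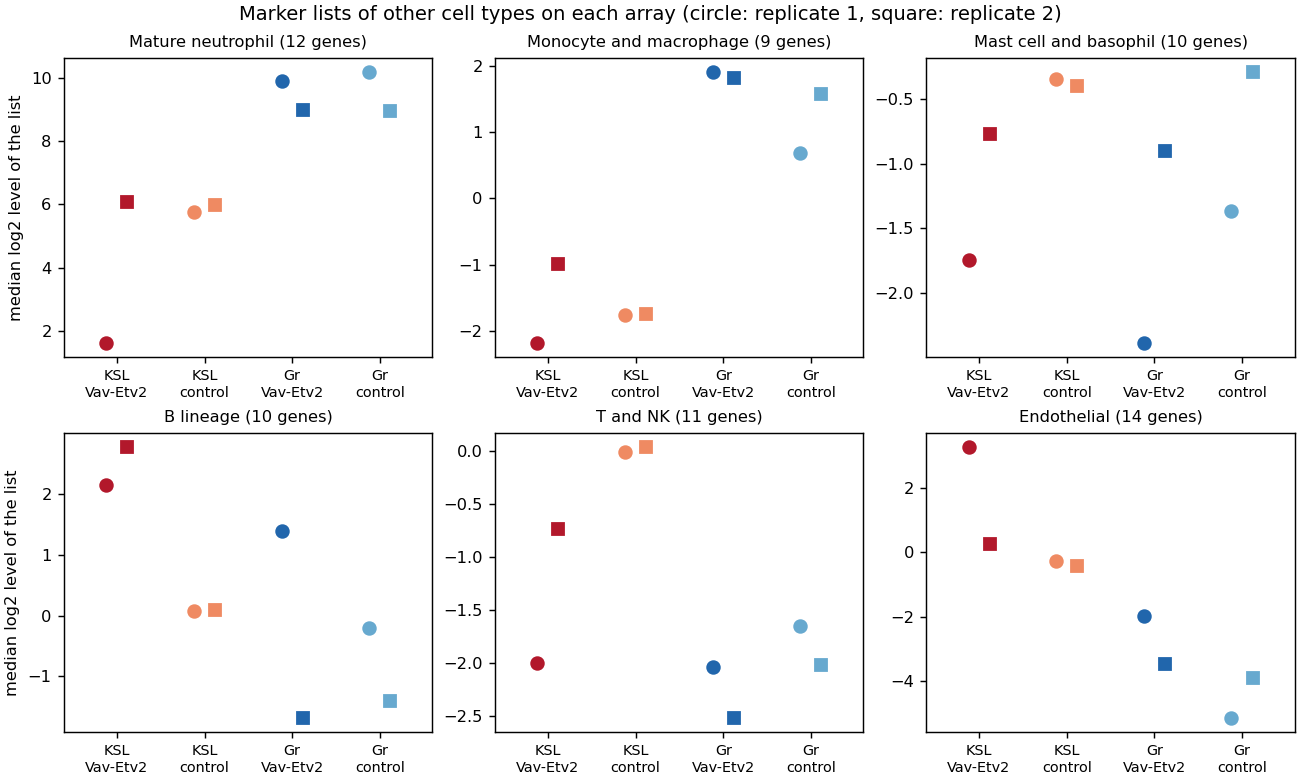
Median log2 level, relative to the array's 75th percentile, of the genes in 6 marker lists on each array; circles are replicate 1 and squares replicate 2. KSL Vav-Etv2 array 1 stands apart, with the mature neutrophil list at 1.62, against 6.07 on array 2, and the endothelial list at 3.26, against 0.26 on array 2.

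The Vav-Etv2 effects in the 2 cell types were compared by their difference, KSL effect minus Gr effect. None of the 9 members passed by limma, where 0.00309% of all probes did, and at an unadjusted p under 0.05 stood 1 member, Procr, and 1271 probes. By the brightest probes all 9 fitted differences were negative, Slamf1 included although it was not well above background in Gr cells. Their median was -0.54, where 48.9% of all probes were negative with a median of 0.02. The other Cd34 probe gave a positive difference of 0.60 (SE 0.59), with 1 of 2 Gr arrays of each genotype well above background. The sign is not firm for each member, since Cd34, Itgam, Cd48 and Thy1 turned positive with 1 array or another left out. Procr had the largest, at -2.77 (SE 0.86, 95% interval -4.80 to -0.74, unadjusted p = 0.0147, limma adjusted p = 1.00). With each array left out in turn it lay between -3.75, without the array labelled Gr control 2, and -1.79, and did not pass. Without that array the difference was -0.90 for Kit, -0.18 for Ly6a, 0.18 for Itgam, -1.17 for Cd34, -1.67 for Flt3, -1.81 for Cd48 and -0.16 for Thy1.

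The order of the 4 groups, by each gene's brightest probe, showed 3 patterns. Kit, Thy1 and Procr ran with KSL controls highest, KSL Vav-Etv2 cells next and the Gr groups lowest, with no overlap between those steps. Cd34, Flt3 and Slamf1 showed KSL cells above Gr cells and no separation by genotype. In Ly6a and Itgam both Gr groups lay above KSL controls, and KSL controls above KSL Vav-Etv2 cells. By the Itgam probe that ends at position 135260334 the KSL genotypes overlapped. It read -1.13 and 1.58 in Vav-Etv2 cells, against 1.27 and 1.40 in controls. Within Gr cells the genotypes overlapped for all members but Thy1. Cd48 had no neighbouring pair of groups free of overlap. The share of all probes with each order was not counted. Groups free of overlap were common, at 51.2% of all probes between the KSL genotypes and 75% between the control cell types.

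Relatives and partners of the members were read from 8 lists chosen with earlier results known. In the cell type comparison their counts stand against 34.1% of all probes called, 15.7% higher and 18.4% lower in KSL controls. Without the array labelled Gr control 2 the calls on Slamf8 (-1.44), Ly6d (3.21), Tek (4.04) and Itga6 (0.95) were lost, with limma adjusted p between 0.0559 and 0.130. Among genes that are no members, Ly9 (1.87), Ly6e (1.66) and Sos1 (3.67) passed newly, where 39.3% of all probes were called, 19.2% higher and 20.1% lower. Among class III receptor kinases, Csf1r, the receptor that drives macrophages, fell in control KSL against Gr cells, at 4.23 against 6.63 (log2 difference -2.40, SE 0.31, limma adjusted p = 0.00313). Pdgfrb was at least 58.2-fold higher in KSL controls, since it was not well above background in Gr controls (limma adjusted p = 0.000853). Pdgfra was not tested because it was dim on all arrays. None of the 4 tested kinases passed in either genotype comparison. In KSL cells Pdgfrb differed by -1.28 (SE 0.55), or -0.66 without KSL Vav-Etv2 array 1, and Csf1r by 0.62 (SE 0.31), so Kit and Pdgfrb lay on the low side and Csf1r on the high side.

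Of the 9 SLAM family genes, 1 rose (Slamf1, not with normexp) and 2 fell in control KSL against Gr cells, a share near that of all probes. Those that fell were Cd84, by 2.91 (SE 0.50, limma adjusted p = 0.00737), and Slamf8, by 1.47 (SE 0.44, limma adjusted p = 0.0411). None passed in the genotype comparisons, where the KSL median of the list was 0.01, against 0.02 over all probes. The 2 smallest p-values in KSL cells were those of Slamf7 and Slamf6, at differences of 1.05 (SE 0.32) and 1.38 (SE 0.47), limma adjusted p = 0.506 and 0.591. In Gr cells the list's median was 0.24, and 0.05 without the array labelled Gr control 2. Ly9 differed by 0.68 (SE 0.57) in Gr cells, and by 1.43 without that array.

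Of 9 Ly6 family genes tested, 2 rose and 4 fell in control KSL against Gr cells. Ly6d, which marks early lymphoid progenitors, rose by 4.29 (SE 1.24) and Ly6k by 1.95 (SE 0.35), while Ly6g, Ly6f, Ly6c1 and Ly6i differed by -5.50, -3.75, -3.19 and -2.11. In KSL cells 8 of the 9 differences between Vav-Etv2 and control were negative, with a median of -0.93, where 48.3% of all probes were negative, and none passed. This rested on KSL Vav-Etv2 array 1: without it 4 of the 9 were negative and the median was 0.04. The smallest p-values were those of Ly6h, at least 2.67-fold higher in Vav-Etv2 cells (limma adjusted p = 0.502), and Ly6k, at -1.07 (limma adjusted p = 0.561). Ly6d read 2.08 and 4.03 in Vav-Etv2 KSL cells against 4.04 on both controls, so it too was low on array 1 only. In Gr cells the median was 0.09, or -0.38 without the array labelled Gr control 2, and none passed.

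Of the 5 beta2 integrin genes, 2 fell in control KSL against Gr cells. These were Itgb2, the beta chain that pairs with Itgam, by 4.37 (SE 0.53, limma adjusted p = 0.00274), and Itgal, the alpha chain of LFA-1, by 2.54 (SE 0.43, limma adjusted p = 0.00714). None passed between genotypes. Itgb2 averaged 2.56 in Vav-Etv2 and 2.64 in control KSL cells, and 7.00 in both Gr groups. Itgal and Itgax were higher in Vav-Etv2 KSL cells by 0.84 (SE 0.43) and 0.89 (SE 0.46), without passing. Of 5 sialomucin genes tested, Cd34 and Emcn rose and Selplg and Cd164 fell in control KSL cells; Emcn was at least 9.75-fold higher, and Selplg and Cd164 differed by -1.76 (SE 0.41) and -1.43 (SE 0.41). None passed between genotypes, and Emcn differed by 1.25 (SE 0.82) in KSL cells, and by 0.09 without KSL Vav-Etv2 array 1.

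The 18 other surface genes of stem and progenitor cells read here split in the cell type comparison, 8 higher and 6 lower in control KSL cells. Those that rose were Cd27 (6.33), Il7r (4.16), Epor (4.09), Eng (3.87), Cd93 (2.24), Itga6 (1.14), Esam (at least 49.1-fold) and Tek (at least 5.27-fold). Those that fell were Prom1 (-5.37), Fcgr3 (-4.96), Cd9 (-2.80), Fcgr2b (-2.49), Cd44 (-1.80) and Csf3r (-1.18). None passed between genotypes. In KSL cells the smallest p-values were those of Alcam (-1.06, SE 0.43), Fcgr3 (1.05, SE 0.43), Tek (2.40, SE 1.06) and Itga2b (2.25, SE 1.03), with limma adjusted p between 0.680 and 0.751. Without KSL Vav-Etv2 array 1 the differences were -0.51 for Alcam, 0.92 for Tek and 0.61 for Itga2b. The list's KSL median was 0.17.

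Ligands and downstream adaptors were read last. Of 5 ligand genes tested, Kitl (stem cell factor) fell in control KSL against Gr cells. It was not well above background in KSL controls and on 1 of 2 Gr controls, so no fold is given. None passed between genotypes, and Flt3l differed by 0.15 (SE 0.30) in KSL cells. Of 12 adaptors and effectors of Kit and Flt3, Fyn (2.81) and Stat5a (1.24) rose in control KSL cells, and Lyn (-3.02), Cbl (-2.38), Ptpn6 (-1.73), Sh2b3 (-1.14) and Grb2 (-1.12) fell. None passed between genotypes. In KSL cells Gab2 gave at least 2.86-fold more signal with Vav-Etv2 (limma adjusted p = 0.575) and Sos1 differed by -2.13 (SE 0.95). Gab2 read -1.72 and -3.57 in Vav-Etv2 arrays 1 and 2, against -4.18 and -5.40 in controls.

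Genes with patterns most like a member's were found by Pearson correlation over the 8 arrays after each cell type's mean was subtracted, among 12352 genes. The points share scaling, slide, the array that stood apart and the split of the Gr arrays by replicate number. For 8 arrays high values are common: between 43 and 1281 genes exceeded 0.9 for a member. The nearest were Rhox8 (r = 0.996) and Dcc (0.995) for Kit, Sertad1 (0.999) and Vps37d (0.997) for Ly6a, and Pdcd4 and Pura (both 0.998) for Itgam. Cd34 had Gypc (0.997) and Nudt1 (0.996), Flt3 had Acaa2 (0.996) and Phlpp2 (0.995), and Procr had Slc25a40 (0.998) and Stau2 (0.981). Cd48 had Ctsa (0.999) and Tep1 (0.997), and Thy1 had Lrrc1 (0.976) and Arhgef12 (0.975). No likeness is given for Slamf1, since 97.5% of its variation within cell types lay in the 4 Gr arrays, where it was not well above background. Procr was well above background on 2 of those arrays, which held 34.0% of its variation. Among the members themselves Ly6a and Itgam correlated at 0.923, and Cd48 with Cd34 at 0.918 and with Flt3 at 0.919. The 4 Gr arrays, where replicate number went with sex, held most of the variation of these genes. Their share was 71.5% for Ly6a, 84.9% for Itgam, 93.4% for Cd48, 97.9% for Cd34 and 90.9% for Flt3.

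Etv2 belongs to the ETS family, whose members bind DNA around a GGAA core. RefSeq promoters on GRCm38.p6, from 250 bases before to 50 bases after the start, were matched for 7 of the 9 members. They were searched for CCGGAA on both strands (TTCCGG on the other). It lay in 1 of the 7 members' promoters, that of Cd48, and in 14.9% of all 32851 promoters. The promoters of Cd48, the member higher in Vav-Etv2 KSL cells, and of Procr, the member lowest against its controls, are shown with the match in capitals.
Cd48, chr1:171681742-171682041, plus strand: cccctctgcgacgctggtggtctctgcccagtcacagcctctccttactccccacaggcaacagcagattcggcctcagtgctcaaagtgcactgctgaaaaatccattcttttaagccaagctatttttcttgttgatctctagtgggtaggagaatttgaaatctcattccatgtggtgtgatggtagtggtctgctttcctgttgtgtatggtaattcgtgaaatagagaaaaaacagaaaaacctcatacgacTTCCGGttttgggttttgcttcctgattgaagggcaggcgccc
Procr, chr2:155750967-155751266, plus strand: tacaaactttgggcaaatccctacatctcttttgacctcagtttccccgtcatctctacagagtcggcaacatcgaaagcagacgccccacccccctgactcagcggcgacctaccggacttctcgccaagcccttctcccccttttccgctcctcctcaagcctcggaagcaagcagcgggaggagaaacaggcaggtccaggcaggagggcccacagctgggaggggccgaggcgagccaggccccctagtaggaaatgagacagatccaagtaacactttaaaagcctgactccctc
The match describes these letters only, and binding was not measured.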

How the data were processed

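The deposited scanner files, 1 per array, hold fluorescence intensity from 1-colour Agilent arrays. Per the file headers the software was Agilent Feature Extraction, version 10.7.3.1, given as 10.7 by the submitters' processing notes. The processed signal used here was background-subtracted and not normalised between arrays. The deposited mean signal and local background, also intensity, served 1 alternative. Other deposited values are marks of 0 or 1 per spot. The deposited table of values is on the log2 scale. Set against the signals, over 99.7% of it lay within 0.01 of processed signals scaled per array and centred on each probe's median within a cell type, so it cannot compare cell types. Its column medians were 3.34e-06 and -0.016 (KSL Vav-Etv2), 0.153 and -0.013 (KSL control), 0.23 and -0.26 (Gr Vav-Etv2) and 0.291 and -0.228 (Gr control).

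After removal of outlier spots the spots of each probe were averaged, and 20 probes lacking a spot on some array were dropped. Log2 signals were set relative to the array's 75th percentile. The filter kept probes marked well above background on 2 or more of the 8 arrays. All 4 groups entered 1 linear model over 32354 probes (limma 3.58.1 in R 4.3.3, with version 1.17.8 of data.table), which had 4 residual and 2.86 prior degrees of freedom and was tested on simulated data. A gene was counted by its probe with the highest mean. Calls were made under a Benjamini-Hochberg adjusted p of 0.05 across all probes. SE is limma's moderated standard error, and intervals are 95% and unadjusted. A gene below background in 1 group has a fold bound, set against the dimmest measurable signal of each array.

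Members and lists were chosen with earlier results of these data known. Some genes of these lists are not reported here. All members are named; of each list, genes called in a comparison, and otherwise up to 4 with the smallest p; for likeness, the 2 best correlated genes. Alternatives were other scalings, normexp with an offset of 50, a floor, other filters, an intensity trend, 1 probe a gene, fits on part of the arrays, the deposited log2 table within cell types, a replicate block and leaving out each array. For the lists, leaving out an array was added after the data were seen.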

Additional observations from a re-analysis of the deposited data

Results flagged for a closer look

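Procr stood out because every Vav-Etv2 array lay on one side of its controls' mean in KSL cells and on the other side in Gr cells. It was lower by 2.31 and 1.93 on KSL Vav-Etv2 arrays 1 and 2, against the mean of KSL controls, and higher by 0.52 and 0.78 on the Gr Vav-Etv2 arrays, against the mean of Gr controls. The KSL effect minus the Gr effect was -2.77 (SE 0.86), which did not pass over all probes (limma adjusted p = 1.00). In Gr cells only 1 of 2 arrays of each genotype was well above background, and within replicate numbers the Gr difference was 1.50 and -0.20.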

How the results depend on the processing

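The counts of members called stayed at 0 in KSL cells, in Gr cells and for the difference of effects under every alternative run. In control KSL against control Gr cells the count was 6, and lay between 5 and 9 over all alternatives: it was 5 of the 7 members tested when the filter asked for all 8 arrays, 7 with median scaling or an intensity trend, and 9 without the array labelled Gr control 2. The replicate number did not qualify as a pairing, since the labels tie it to no animal and same-numbered arrays' deviations correlated at 0.064 in KSL and 0.645 in Gr cells. With the replicate number as a block within each cell type, 0 members were called between genotypes and 8 in control KSL against control Gr cells, where Ly6a (-1.70, limma adjusted p = 0.0111) and Itgam (-1.60, limma adjusted p = 0.00752) joined; no other member call changed. Median scaling moved the median of all probes by -0.17 in the cell type comparison, and no other scaling moved one by over 0.1. Of single gene or probe values, 759 kept direction and call, 12 passed newly, 16 lost the call and 32 changed sign; the cause was not tested. With normexp the Flt3 clone probe gave 0.028 in KSL cells, and with median scaling or quantile normalization 0.011. The Gr difference of Itgam was -0.012 with quantile normalization and that of Procr -0.016 with a floor. With each array left out in turn, KSL differences that changed sign ranged between -0.43 and 0.19 for Flt3, -0.18 and 0.21 for Slamf1, -0.20 and 0.12 for the Flt3 clone probe, -0.052 and 0.63 for the other Cd34 probe and -2.47 and 0.25 for the middle Itgam probe. Gr differences ranged between -0.53 and 0.0087 for Kit, -0.83 and 1.00 for Ly6a, -0.61 and 0.65 for Itgam, -0.44 and 1.07 for Cd34, -0.053 and 1.55 for Flt3, -0.32 and 2.44 for Cd48 and -0.33 and 1.63 for Procr. The differences of effects ranged between -1.17 and 0.34 for Cd34, -1.03 and 0.22 for Itgam, -1.81 and 0.95 for Cd48 and -0.33 and 0.25 for Thy1. Control KSL minus control Gr ranged between -0.53 and 2.23 for Cd48 and between -0.53 and 2.50 for its other probe. Low signal limits Slamf1 and Procr in Gr cells.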
